A study of Mus musculus with 3 samples.

Results

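The minichromosome maintenance (MCM) replication licensing genes were followed in mouse spleen CD4+ T cells before and after activation, in single-cell RNA libraries. The 10 genes, chosen by name from the 31053 genes of the feature tables, were the helicase subunit genes Mcm2, Mcm3, Mcm4, Mcm5, Mcm6 and Mcm7, the helicase activation gene Mcm10, the loading genes Cdc6 and Cdt1, and Gmnn, which encodes the loading inhibitor geminin. All 10 were found, and all 10 had UMIs in each of the 3 libraries. A UMI, or unique molecular identifier, is a tag that stands for 1 captured RNA molecule, and the level of a gene is given as its UMIs per 1000000 UMIs of a library (CPM).

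The 3 libraries, with 1 per condition, came from C57BL/6 mice that all carried floxed Ift20 alleles. Unstimulated WT cells (Ift20 f/f) were kept in DPBS and taken at 0 h, stimulated WT cells (Ift20 f/f) were activated for 24 h by antibodies to CD3 and CD28, each at 1 μg/mL, and stimulated IFT20-KO cells (Ift20 f/f CD4 cre) received that same culture. Cre driven by the Cd4 promoter acts from thymic development on, that is before the culture. Cells were enriched for naïve CD4+ T cells and sorted as 7AAD-negative, CD3+ and CD4+, and the number of mice behind each library was not given in the sources used here. No value has a replicate, no test was made, and every 95% interval covers counting error only.

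A cell can copy its DNA only at origins that were licensed beforehand. The origin recognition complex, CDC6 and CDT1 load the ring of MCM2 to MCM7 onto DNA in G1, and in S phase CDC45, the GINS complex and MCM10 turn that ring into the working helicase. Geminin binds CDT1 from S phase to mitosis and prevents origins from being licensed again. Resting T cells carry little of this machinery and build it after antigen receptor signaling, before their first division. Mki67, which encodes the proliferation marker Ki-67, is transcribed mostly later, in S, G2 and M.

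Genes of this group are textbook targets of E2F transcription factors, so their promoters were searched for the E2F words TTTCCCGC, TTTGGCGC, TTTCGCGC and TTTGCCGC on both strands, from 250 bases before to 50 bases after the start (RefSeq, GRCm38.p6). Of the 10 members, 8 had an entry in the table, with 9 promoters in all because Mcm7 has 2. At least 1 such word was held by 6 of the 9 promoters, each of a different gene (Mcm3, Mcm5, Mcm6, Mcm7, Cdc6 and Cdt1), against 2.26% of all 32851 promoters. Mcm2 and Mcm10 held none. The 3 stretches below are shown because their words lie upstream of the RefSeq start and outside annotated exons. Capitals mark the words, 2 overlapping ones on opposite strands in Mcm5 and in Mcm6 and 1 on the opposite strand in Cdc6.
Mcm5, chr8:75109331-75109390, plus strand: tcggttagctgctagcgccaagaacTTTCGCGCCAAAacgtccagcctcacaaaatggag
Mcm6, chr1:128359766-128359825, minus strand: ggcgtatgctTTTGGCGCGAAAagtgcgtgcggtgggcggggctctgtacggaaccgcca
Cdc6, chr11:98907986-98908045, plus strand: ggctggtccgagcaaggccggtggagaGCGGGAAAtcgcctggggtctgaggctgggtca
The Mcm5 stretch runs from -178 to -119 relative to the start, the Mcm6 stretch from -120 to -61 and the Cdc6 stretch from -165 to -106. GENCODE M21 also has longer Cdc6 models that begin at 98907801, upstream of that RefSeq start, and within them the Cdc6 stretch is intronic. The cell-cycle word TTTGAA, found on either strand in 17.9% of all promoters, was in 1 of the 9 member promoters, that of Mcm2, and in those of Mki67 and Top2a. CCAAT, found in 37.4% of all promoters, was in 7 of the 9, from 6 genes. A match describes the letters in the window and not a site at which a factor was bound.

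Barcodes kept at over 200 genes and below 15% of UMIs from mitochondrial genes numbered 8031 for unstimulated WT, 9903 for stimulated WT and 13920 for IFT20-KO. Ift20, the targeted gene, was at 64.4, 76.0 and 6.60 CPM in that order. Depth was unequal, since the median cell held 4627, 12167 and 5014.5 UMIs and the libraries 37133949, 116979076 and 106435143 UMIs in all, and the shallowest kept cell had 510, 709 and 1493 UMIs. Barcodes occurring in 2 libraries numbered 114 to 197 per pair. The CD4+ T cell markers summed to 3265 to 4275 CPM, whereas the erythroid markers summed to at most 0.0094 CPM and Lyz2 was at or near 0. The summed B cell markers (286, 144 and 154 CPM, nearly all Ighm), myeloid markers (81.1, 76.6 and 80.6 CPM, nearly all Cst3) and CD8 and NK cell markers (74.8, 14.6 and 16.9 CPM) were not higher after stimulation.

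To examine the helicase genes upon activation, stimulated WT cells were first compared with unstimulated WT cells. The unstimulated cells were taken at 0 h, so the antibodies and the 24 h of culture cannot be told apart in any such comparison. The 6 subunit genes together rose from 200.4 to 1429 CPM, a 7.13-fold difference (log2 ratio 2.83, 95% interval 2.80 to 2.87), and each of the 6 rose. Mcm5 (chr8:75109569-75128439, plus strand, GRCm38) rose the most, from 17.3 to 200.2 CPM, with 217 CPM in the IFT20-KO library. Mcm3 (chr1:20802968-20820312, minus strand) was at 28.8 CPM at rest, 308 CPM in stimulated WT and 352 CPM in IFT20-KO cells. Their log2 ratios of stimulated over unstimulated WT were 3.54 (3.42 to 3.65) and 3.42 (3.33 to 3.51), intervals that overlapped each other but not those of the other 4 subunits.

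Mcm2 (chr6:88883474-88898780, minus strand) was at 23.0, 163 and 171 CPM in the same order of libraries. Mcm6 (chr1:128331590-128359664, minus strand) was at 49.3, 352 and 396 CPM. The 2 genes rose alike, by 2.83 (2.73 to 2.93) and 2.84 (2.77 to 2.90) on the log2 scale, close to the sum. Mcm7 (chr5:138164583-138172422, minus strand) was at 31.5, 173 and 203 CPM and rose by 2.46 (2.38 to 2.55). Mcm7 overlaps Ap4m1 and Cops6 on the other strand and contains the microRNA genes Mir25, Mir93 and Mir106b on its own strand. Whether these overlaps affect its count was not tested. Mcm4 (chr16:15623897-15637400, minus strand) was at 50.6, 234 and 300.3 CPM and rose least among the subunits, by 2.21 (2.14 to 2.27).

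The make-up of the summed subunit transcripts shifted with these unequal rises. Mcm4 supplied 25.3% of the UMIs of the 6 genes in unstimulated WT cells and 16.3% in stimulated WT cells. Mcm5 went the other way, from 8.62% to 14.0%, as did Mcm3, from 14.4% to 21.5%. Mcm6 and Mcm2 held their parts, with 24.6% in both libraries for Mcm6 and 11.5% and 11.4% for Mcm2. In the IFT20-KO library the shares lay within 2 percentage points of those in stimulated WT cells, the largest difference being 18.3% for Mcm4. The reads cover 1 end of a transcript, so levels of different genes were not ranked against each other, and these shares serve only to compare libraries.

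Of the genes that load and activate the ring, Mcm10 and Cdc6 were nearly silent at rest. Mcm10 (chr2:4989714-5012791, minus strand) had 3 UMIs in 2 unstimulated cells, or 0.0808 CPM, against 8.63 CPM in stimulated WT and 11.4 CPM in IFT20-KO cells. Cdc6 (chr11:98907801-98923940, plus strand) had 20 UMIs in 10 unstimulated cells, or 0.539 CPM, against 19.5 and 26.4 CPM. The log2 ratios of stimulated over unstimulated WT were 6.74 (5.19 to 9.02) for Mcm10 and 5.18 (4.55 to 5.89) for Cdc6, above those of every helicase subunit, although the unstimulated values rest on very few molecules.

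The transcripts for CDT1 and geminin, proteins that oppose each other, differed by unequal amounts. Cdt1 (chr8:122568015-122573554, plus strand) was at 32.6, 66.8 and 74.8 CPM in unstimulated WT, stimulated WT and IFT20-KO cells, and its log2 ratio of stimulated over unstimulated WT, 1.04 (0.95 to 1.12), was the smallest of the 10. Its locus overlaps the gene model Gm20388 on the same strand, and whether this affects its count was not tested. Gmnn (chr13:24751845-24761923, minus strand) was at 15.1, 76.5 and 89.8 CPM and rose by 2.34 (2.22 to 2.47).

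All 10 members were at least 2-fold higher in stimulated than in unstimulated WT cells, against 19.3% of the 13297 genes that had 10 or more UMIs over the pair of libraries. The members' median log2 ratio was 2.83 and that of all genes -0.089, and the members ranked between the 81.4th percentile (Cdt1) and the 99.8th (Mcm10). All 10 intervals lay above 0, against 37.8% of all genes, and none lay below 0, against 43.8%. Mki67 stood at 2.15 CPM in unstimulated WT, 8.91 CPM in stimulated WT and 21.6 CPM in IFT20-KO cells.

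**Figure D1:**
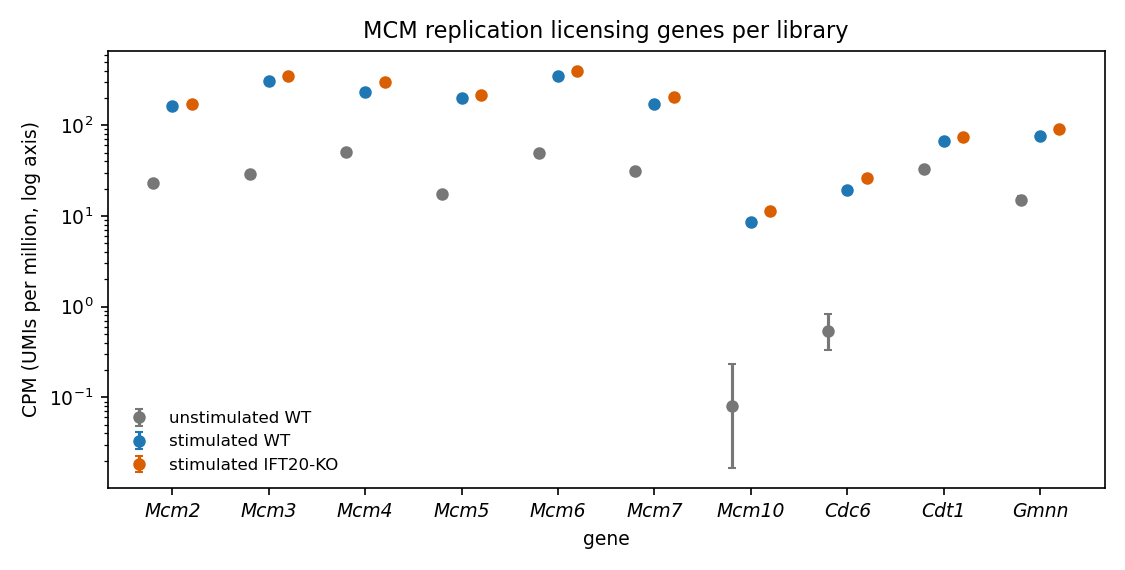
Level of each of the 10 licensing genes in CPM (log axis) for unstimulated WT (grey), stimulated WT (blue) and stimulated IFT20-KO (orange) cells, with 95% Poisson intervals. All 10 genes lie higher in both stimulated libraries than at rest, with Mcm10 and Cdc6 below 1 CPM at rest, and the IFT20-KO points lie slightly above the stimulated WT points in CPM, an order that turns when UMIs are counted per cell.

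After stimulation, subunit transcripts were seen in a larger share of cells. At least 1 UMI of the 6 subunit genes was seen in 56.0% of unstimulated WT, 96.5% of stimulated WT and 98.8% of IFT20-KO cells. Single genes were seen in 7.28% (Mcm5) to 20.4% (Mcm4) of unstimulated cells and in 65.1% (Mcm7) to 80.9% (Mcm6) of stimulated WT cells. Because deeper cells show more genes, the cells were also thinned to 1400 UMIs each, which left out 801 unstimulated and 421 stimulated WT cells and no IFT20-KO cell. At that equal depth, a UMI of any subunit gene was seen in 23.9%, 77.3% and 86.3% of cells.

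Cells with UMIs of at least 3 of the 6 subunit genes, called MCM-positive here, made up 4.64% of unstimulated WT, 77.6% of stimulated WT and 78.2% of IFT20-KO cells. All 6 genes were seen together in 42.2% of stimulated WT and 29.6% of IFT20-KO cells, and in 7 unstimulated cells. After thinning to 4000 UMIs, which kept 5374, 7604 and 7268 cells, the MCM-positive share was 2.62%, 67.0% and 77.1%. The share in unstimulated cells serves as the background, since resting-type cells of the stimulated libraries, defined by Il7r without activation genes, numbered 8 and 10 and were too few. At equal depth the MCM-positive share in both stimulated libraries was thus far above background. It was higher in the IFT20-KO library (76.1 to 78.1%) than in the stimulated WT library (66.0 to 68.1%), with intervals for counting error only. The cut at 4000 UMIs kept 76.8% of stimulated WT and 52.2% of IFT20-KO cells, so different parts of the libraries were compared. After thinning to 1400 UMIs, which left out no IFT20-KO cell, the shares were 21.2% in stimulated WT and 27.5% in IFT20-KO. Whether the difference follows from genotype was not tested, as no condition has a replicate library. Nor was this share set against that of other genes.

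**Figure D2:**
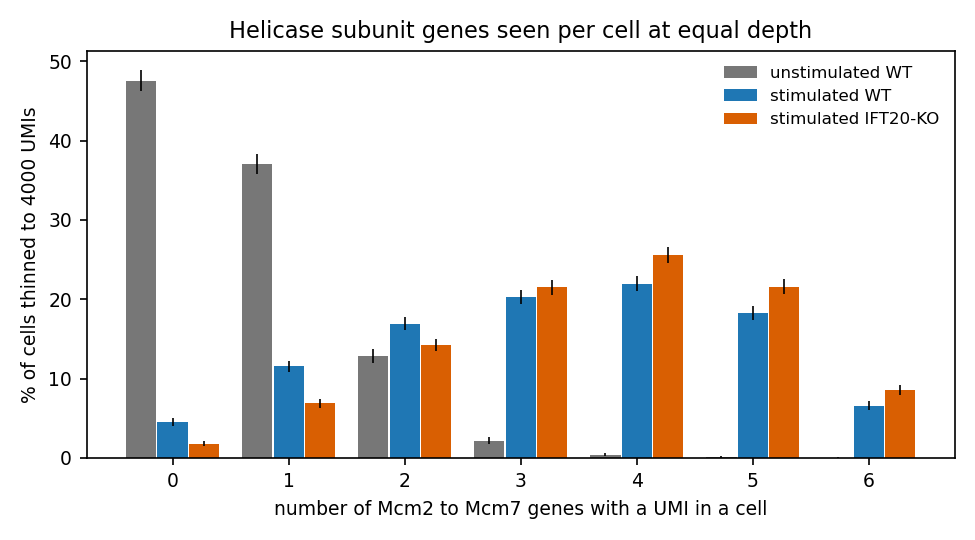
Percent of cells (vertical axis) in which 0 to 6 of the genes Mcm2 to Mcm7 had a UMI (horizontal axis), each cell thinned to 4000 UMIs, with exact 95% intervals. Unstimulated WT cells (grey) pile up at 0 and 1 genes, while stimulated WT (blue) and IFT20-KO cells (orange) peak at 4, and 67.0% and 77.1% of them show 3 or more.

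Mki67 was then asked of the same cells, because Ki-67 is the usual mark of a cycling T cell. Most MCM-positive stimulated cells had no Mki67 UMI. In stimulated WT cells 7297 of 7682 MCM-positive cells lacked it, or 94.99% (94.5 to 95.5%). In IFT20-KO cells 9935 of 10890 lacked it, or 91.2% (90.7 to 91.8%). In the unstimulated library 367 of the 373 MCM-positive cells lacked it.

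Mki67 was rare in the libraries as a whole and was seen in 4.51% of all stimulated WT cells and 8.35% of all IFT20-KO cells, against 0.324% of unstimulated cells. Read the other way, most Mki67-positive cells were MCM-positive, with 385 of 447, or 86.1% (82.6 to 89.2%), in stimulated WT and 955 of 1163, or 82.1% (79.8 to 84.3%), in IFT20-KO cells, beside the 77.6% and 78.2% of all cells that were. After thinning to 1400 UMIs these shares were close to those of all cells, at 22.7% of Mki67-positive against 21.2% of all stimulated WT cells and 28.3% against 27.5% for IFT20-KO. After thinning to 4000 UMIs they were above those of all cells. They stood at 88.8% (82.2 to 93.6%) against 67.0% in stimulated WT and at 82.9% (77.9 to 87.1%) against 77.1% in IFT20-KO. MCM-positive cells far outnumbered Mki67-positive cells in either library.

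A cell without a Mki67 UMI may still hold the transcript, so the share was set against depth and against other division genes. MCM-positive cells without Mki67 had a median of 13651 UMIs in stimulated WT and 9068 in IFT20-KO cells, and those with Mki67 had 17589 and 9546. Thinned to 4000 UMIs, 97.7% of MCM-positive stimulated WT and 95.9% of MCM-positive IFT20-KO cells lacked Mki67, and thinned to 1400 UMIs these were 98.6% and 96.5%. Requiring all 6 subunit genes gave 93.3% and 89.5%. With Top2a, the topoisomerase gene of S, G2 and M, counted as a second mark, 75.0% and 68.5% of MCM-positive cells had neither Mki67 nor Top2a. Top2a was seen in 21.1% and 24.9% of the MCM-positive cells without Mki67, close to the 21.1% and 25.9% of all cells in these libraries.

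Mki67 was seen readily where other division genes were abundant. Over 19 other G2/M genes, Mki67 was seen in 1.19% of stimulated WT cells with 0 UMIs of them, 5.46% with 2 to 4, 41.5% with 10 to 19 and 87.0% with 20 or more. In IFT20-KO cells these shares were 3.77%, 11.5%, 49.7% and 86.9%. Against the summed UMIs of Mcm2 to Mcm7 the share with Mki67 was uneven and stayed low. The classes were 0, 1, 2 to 4, 5 to 9, 10 to 19 and 20 or more UMIs. In that order the share was 1.16%, 2.40%, 3.98%, 2.93%, 1.66% and 7.94% in stimulated WT cells. In IFT20-KO cells it was 5.95%, 5.48%, 7.27%, 8.26%, 5.58% and 12.6%. The classes differed in size. In stimulated WT, 20 or more UMIs were held by 3477 cells for the subunits and by 146 for the G2/M genes. Of these, 276 and 127 had Mki67, out of 447 such cells in the library. In IFT20-KO the classes held 3193 and 137 cells, of which 403 and 119 had Mki67. Most cells of the top subunit class thus lacked Mki67. As Mki67 was rare in stimulated WT, the share in so large a class could only be low there. In IFT20-KO, 1163 cells had Mki67, which left room in the class of 3193 for a higher share than the 12.6% seen. The heights of the 2 axes are not comparable. The deeper cells fill the upper classes on both axes, and how far the differences between classes follow the number of UMIs per cell was not tested. The axes also differed in depth. In stimulated WT, cells with 2 to 4 subunit UMIs had a median of 2356.5 UMIs, and cells with 0 other G2/M UMIs had 10573.5. Mki67 stood at 43.4 CPM in stimulated WT cells of 1400 to 3000 UMIs and at 2.63 CPM in those of 6000 to 12000.

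**Figure D3:**
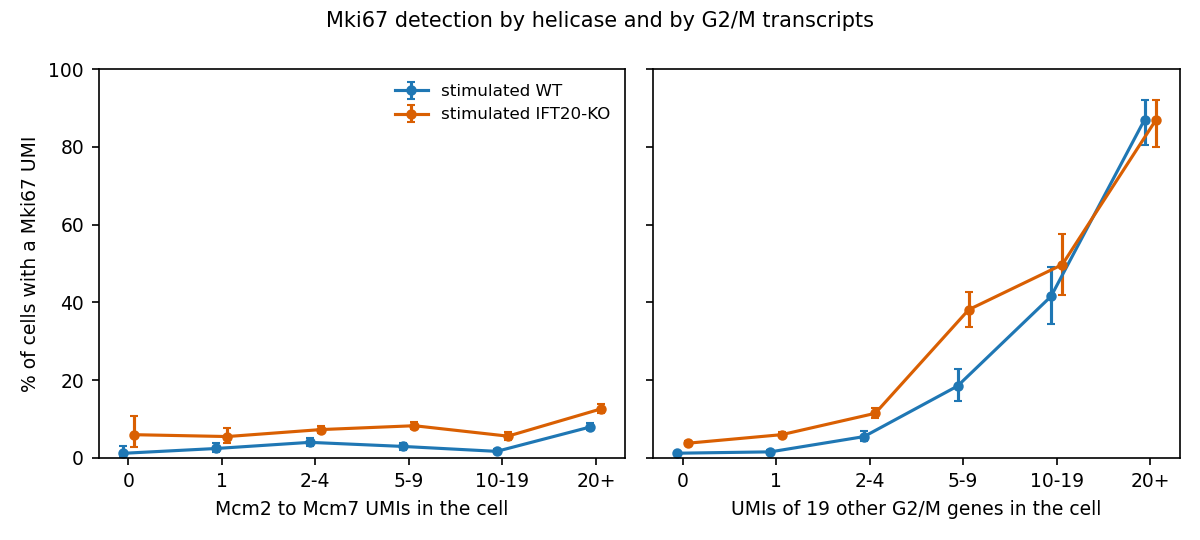
Percent of stimulated WT (blue) and IFT20-KO (orange) cells with a Mki67 UMI (vertical axis), by the cell's summed UMIs of Mcm2 to Mcm7 (left) and of 19 other G2/M genes (right), with exact 95% intervals. On the left the share stays at or below 12.6%, and on the right it climbs to 87.0% and 86.9%. The classes differ in size, and that of 20 or more UMIs holds 3477 stimulated WT cells on the left and 146 on the right.

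MCM-positive cells with and without Mki67 also differed in the other licensing genes. In stimulated WT cells Mcm10 stood at 39.1 CPM in the 385 cells with Mki67 and at 6.78 CPM in the 7297 without it (log2 ratio 2.53, interval 2.32 to 2.73). Cdc6 differed by 2.36 on the log2 scale (2.22 to 2.50), from 81.4 to 15.8 CPM, and Gmnn by 1.36 (1.27 to 1.44), from 184 to 72.0 CPM. Cdt1 differed less, with 103 and 66.7 CPM and a log2 ratio of 0.62 (0.51 to 0.74), and the 6 subunits by 0.24 (Mcm2) to 0.82 (Mcm7). For scale, Pcna, the sliding clamp gene, differed by 0.94. These cells share a library, and the subunit values were part of the rule that made the cells MCM-positive, so they are descriptions.

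In IFT20-KO cells the differences were smaller for all 10 genes, with Mcm10 and Cdc6 again the highest and Mcm2 again the lowest. The log2 ratio of cells with over cells without Mki67 was 1.59 (1.39 to 1.79) for Mcm10, 1.49 (1.36 to 1.62) for Cdc6, 0.88 for Gmnn, 0.44 for Cdt1 and 0.19 (Mcm2) to 0.48 (Mcm7) for the subunits. The intervals for Mcm10 and for Cdc6 did not overlap those in stimulated WT cells. The MCM-positive cells with Mki67 had a median of 17589 UMIs in stimulated WT and 9546 in IFT20-KO. A difference between the libraries thus cannot be told apart from a difference in depth here. Of the MCM-positive cells without Mki67, 51.7% in stimulated WT and 45.8% in IFT20-KO had 0 UMIs of the 19 other G2/M genes. Those with Mki67 were at 11.7% and 19.9%. Over all cells, 5478 of 9903 in stimulated WT and 6447 of 13920 in IFT20-KO had 0, so the cells without Mki67 were close to their library as a whole.

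**Figure D4:**
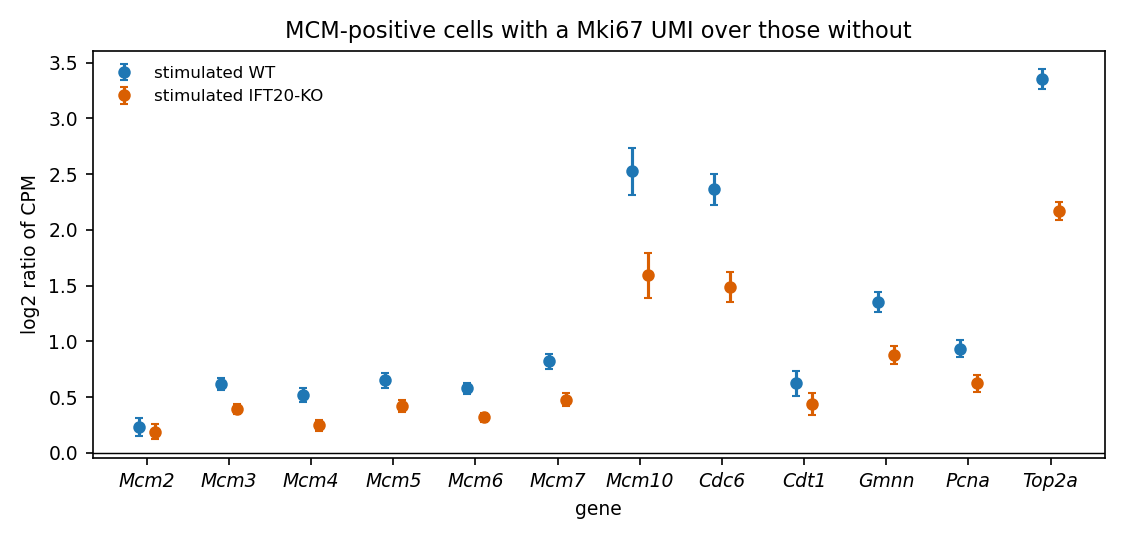
Log2 ratio of CPM in MCM-positive cells with a Mki67 UMI over those without (vertical axis), for the 10 licensing genes, Pcna and Top2a, in stimulated WT (blue) and IFT20-KO (orange) cells, with 95% intervals for counting error. Mcm10 and Cdc6 lie highest among the licensing genes, at 2.53 and 2.36 in stimulated WT cells and 1.59 and 1.49 in IFT20-KO cells, and Mcm2 lies lowest.

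Levels also differed between cells grouped by their total UMIs. Whether this follows from reading depth or from the kind of cell was not tested. In stimulated WT cells the summed subunits stood at 1221 CPM in cells of 1400 to 3000 UMIs, at 1168 and 1170 CPM in the next groups up to 12000 UMIs, and at 1459 and 1612 CPM above. The corresponding IFT20-KO values were 1662, 1625, 1450, 1755 and 1712 CPM. The IFT20-KO value was thus the higher one in each of the 5 depth groups, by the least in the deepest. In unstimulated cells the sum was between 188 and 257 CPM in every group below 20000 UMIs.

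Mki67, Mcm10 and Cdc6 had an uneven profile over depth in stimulated cells, with the lowest level of each in cells of 6000 to 12000 UMIs. In stimulated WT cells Mki67 was at 43.4 and 53.2 CPM in cells of 1400 to 3000 and 3000 to 6000 UMIs, at 2.63 CPM in cells of 6000 to 12000 and at 14.6 CPM from 20000 UMIs. The 421 stimulated WT cells below 1400 UMIs were at 6.59 CPM. In IFT20-KO cells, none of which was below 1400 UMIs, the Mki67 values were 48.1, 100.6, 6.53 and 18.0 CPM. Mcm10 went from 19.6 CPM in stimulated WT cells of 1400 to 3000 UMIs to 2.85 CPM at 6000 to 12000 and 14.2 CPM from 20000, and Cdc6 from 34.6 to 8.02 and 32.1 CPM. Cells of 1400 to 3000 UMIs made up 17.4% of stimulated WT and 39.6% of IFT20-KO cells, and what kind of cells they were was not tested. Gmnn, Cdt1, Mcm4 and Mcm6 also had their lowest level at 6000 to 12000 UMIs in both stimulated libraries. Over cells of 1400 to 3000, 6000 to 12000 and 20000 or more UMIs, Gmnn was at 98.5, 54.7 and 99.7 CPM in stimulated WT. Mcm4 was at 402, 261 and 280 CPM in the same groups of IFT20-KO cells. The library totals of all these genes thus also reflect how many cells of each depth a library held.

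**Figure D5:**
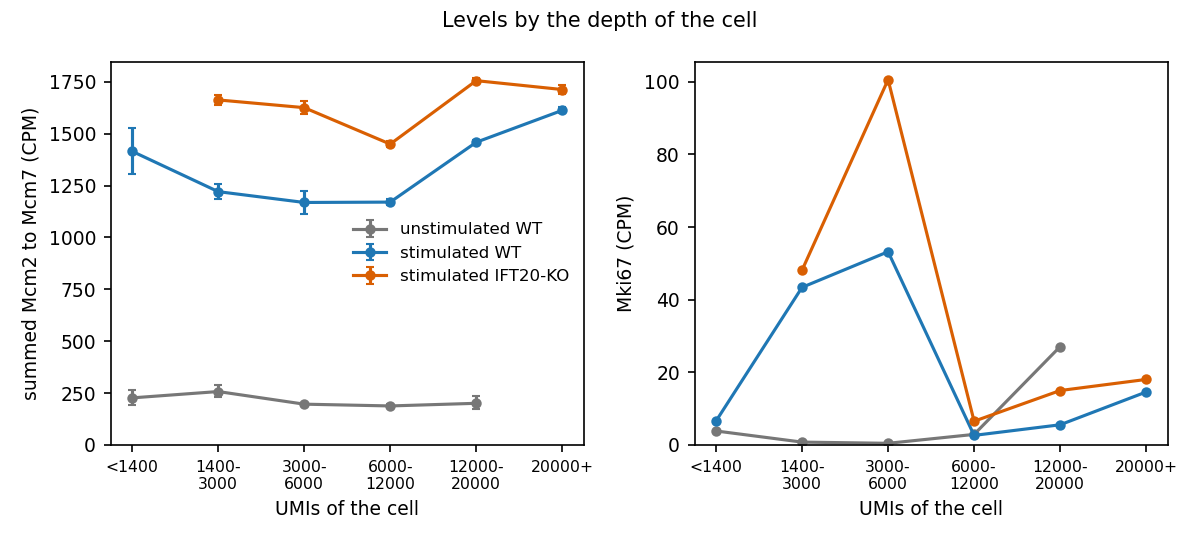
Summed CPM of Mcm2 to Mcm7 (left) and CPM of Mki67 (right) in cells grouped by their total UMIs (horizontal axis), for unstimulated WT (grey), stimulated WT (blue) and IFT20-KO (orange), with 95% Poisson intervals on the left. The summed subunits stay within 1168 to 1612 CPM in stimulated WT and 1450 to 1755 CPM in IFT20-KO cells, while Mki67 peaks at 53.2 and 100.6 CPM in cells of 3000 to 6000 UMIs. The rightmost grey point rests on 58 cells.

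Cdt1 and Gmnn, whose proteins alternate through the cell cycle, were each seen in a minority of cells at equal depth. In stimulated WT cells thinned to 4000 UMIs, 14.97% had a UMI of Cdt1 alone, 15.6% of Gmnn alone, 6.18% of both and 63.3% of neither. Mki67 was seen in 1.49% (0.873 to 2.38%) of the cells with Cdt1 alone and in 4.40% (3.30 to 5.72%) of those with Gmnn alone. The IFT20-KO shares with Mki67 were 3.37% (2.43 to 4.54%) and 5.76% (4.56 to 7.17%), so in both libraries Mki67 accompanied Gmnn more often than Cdt1, beyond the counting intervals.

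The subunits rose and fell together from cell to cell. Over the 7604 stimulated WT cells with at least 4000 UMIs, Pearson's r of log-scaled values ranged from 0.34 (Mcm2 with Mcm7) to 0.53 (Mcm3 with Mcm6) over the 15 subunit pairs, with a median of 0.44. Over the 7268 IFT20-KO cells it ranged from 0.23 to 0.41, with a median of 0.33. The summed subunits correlated with Gmnn (0.47 in stimulated WT and 0.36 in IFT20-KO), Cdt1 (0.37 and 0.29), Cdc6 (0.34 and 0.26), Mcm10 (0.25 and 0.17) and least with Mki67 (0.13 and 0.12). All these cells share a library, and the sum also correlated with the total UMIs of the cell (0.25 and 0.17). Pearson's r is also lowered for a gene at 0 in most cells, so this order is not a ranking of coupling. Of all stimulated WT cells, 42.3% showed Gmnn, 44.0% Cdt1, 14.0% Cdc6, 7.87% Mcm10 and 4.51% Mki67. In IFT20-KO cells Mcm10 was seen in 7.32% and Mki67 in 8.35%.

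Within 1400 UMIs per cell, a pair of subunit genes was seen together slightly more often than the product of their shares. In stimulated WT cells the excess was from 1.12-fold (Mcm2 with Mcm4) to 1.27-fold (Mcm3 with Mcm5), and in IFT20-KO cells from 1.03-fold (Mcm4 with Mcm5) to 1.13-fold (Mcm5 with Mcm7). Mcm10 and Cdc6 were seen together in 12 stimulated WT cells, where the product of the shares gives 2.90 cells. The excess was smaller in IFT20-KO, with 20 cells where the product gives 10.4.

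Among the 8489 other genes seen in at least 5% of these stimulated WT cells, the 10 whose levels most resembled the summed subunits were Dut (r 0.54), Ung (0.49), H2afz (0.49), Hells, Tipin, Hmgb2 (0.47 each), Lig1, Slbp, Stmn1 (0.46 each) and Tubb5 (0.45). Dut and Ung keep uracil out of DNA, Tipin travels with the replication fork, Lig1 joins Okazaki fragments and Slbp binds histone mRNA. In IFT20-KO cells all 10 were again within the first 13 places. From Ung to Tubb5 the neighbours in this order were hardly separated.

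To determine whether loss of IFT20 changed these genes, stimulated IFT20-KO cells were compared with stimulated WT cells, the same WT library as above. Differences were small beside those of stimulation. The summed subunits were at 1639 CPM in IFT20-KO and 1429 CPM in stimulated WT cells, 1.15-fold apart (log2 ratio 0.20, interval 0.19 to 0.21), while the median of all 13504 genes was itself shifted by 0.14. Relative to that median the subunits differed by 0.061, and counted as UMIs per cell the order turned, to a log2 ratio of -0.43.

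Each of the 10 members was higher in CPM in IFT20-KO than in stimulated WT cells by more than its counting interval, against 45.1% of all genes (16.1% were lower), and none was higher in UMIs per cell. Cdc6 had the largest log2 ratio, 0.44 (0.36 to 0.52), followed by Mcm10 with 0.40 (0.28 to 0.52) and Mcm4 with 0.36 (0.34 to 0.39). These 3 of 10 were at least 25% higher, where 30.1% of all genes were, and no member was at least 25% lower, where 6.3% of all genes were. Set against the all-gene median, no member was 25% higher, against 19.8% of all genes, though 3 were with per-cell shares or after thinning to 1400 UMIs. Gmnn differed by 0.23, Mcm7 by 0.23, Mcm3 by 0.19, Mcm6 by 0.17, Cdt1 by 0.16, Mcm5 by 0.11 and Mcm2 by 0.067. The members lay between the 40.8th and the 79.1st percentile of all genes, with a median of 0.21. Mki67 differed more, by 1.27 (1.17 to 1.38).

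The rest of the licensing and replication machinery was read from lists of named genes, in CPM. The counts below stand beside 19.3% of all genes at least 2-fold higher after stimulation and 30.1% of all genes at least 25% higher in IFT20-KO cells, a share that was 19.8% against the all-gene median and 4.48% in UMIs per cell. Of the 6 origin recognition genes, 3 were at least 2-fold higher in stimulated than in unstimulated WT cells, with a median log2 ratio of 0.85. Orc1, the subunit that comes and goes with the cell cycle, rose from 0.135 to 9.56 CPM (6.15, interval 4.92 to 7.77), Orc6 by 2.02 and Orc2 by 1.20. Orc3, Orc4 and Orc5 differed by 0.49, 0.37 and 0.21. In IFT20-KO over stimulated WT cells none of the 6 was at least 25% higher and the median was 0.035.

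Of the 12 activation and firing factors, 7 were at least 2-fold higher after stimulation, against 19.3% of all genes, with a median of 1.17. Gins2 rose from 1.67 to 62.5 CPM (5.23), Cdc45 from 1.32 to 22.0 CPM (4.06) and Gins1 from 0.916 to 14.5 CPM (3.99), whereas Cdc7 and Dbf4, which form the kinase that phosphorylates the loaded ring, differed by 0.46 and 0.33, and Donson by 0.32. In IFT20-KO cells 6 of the 12 were at least 25% higher, against 30.1% of all genes, with Recql4 (0.76), Gins3 (0.68) and Ticrr (0.65) highest and a median of 0.31. Relative to the all-gene median that median was 0.18.

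Other MCM proteins and partners split in direction in CPM, but not in UMIs per cell. Of these 8 genes, 5 were at least 2-fold higher after stimulation, led by Mcm8 (0.889 to 10.1 CPM, log2 ratio 3.50), Mms22l (2.65) and the histone chaperone gene Ssrp1 (1.38), while Mcm9, the partner of Mcm8 in recombination repair, was at 23.9 and 14.9 CPM (-0.68), Kat7 at -0.66 and Mcmbp at -0.24. In UMIs per cell these 3 were higher after stimulation, Mcm9 with 888 UMIs in 8031 and 1741 UMIs in 9903 cells. In IFT20-KO cells 5 of the 8 were at least 25% higher, against 30.1% of all genes, among them Tonsl (0.69), Mcm9 (0.65) and Mms22l (0.42). Relative to the all-gene median these 3 were at 0.55, 0.51 and 0.29, and the median of the list was 0.22. Of 12 genes for the degradation of CDT1 and geminin, 3 were at least 2-fold higher after stimulation: Dtl, the adaptor that targets CDT1 on loaded PCNA (1.78 to 36.5 CPM, 4.36), Cdc20 (1.37) and Skp2 (1.04). The lowest of that list were Usp7 (-0.58), Cul4a (-0.031) and Skp1a (0.34). The same Dtl was also the highest of that list in IFT20-KO over stimulated WT cells, at 61.6 and 36.5 CPM (0.76).

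Of the 24 replisome and DNA polymerase genes, 21 were at least 2-fold higher after stimulation, with a median of 1.88. Clspn (4.09), Pole (3.57) and Lig1 (2.96) were the highest and Rpa1 (-0.37), Rpa3 (0.93) and Rfc1 (0.95) the lowest. Of the 13 E2F and pocket protein genes, 5 were at least 2-fold higher and 2 at least 2-fold lower, where 23% of all genes were lower. E2f8 was the highest, with 1 UMI in all unstimulated cells and 206 in stimulated WT cells (6.03, interval 3.54 to 11.3). E2f1 rose from 2.77 to 22.4 CPM (3.01) and Tfdp1, which encodes its DNA-binding partner, from 21.4 to 145 CPM (2.76), whereas the pocket protein genes Rbl2 and Rb1 fell from 36.0 to 13.7 CPM (-1.39) and from 16.9 to 7.39 CPM (-1.19). Rb1 was higher in UMIs per cell, with 626 UMIs in 8031 and 865 UMIs in 9903 cells. E2f2 was at -0.94, and the pocket protein gene Rbl1, named after its value was seen, at -0.016. Of the 20 G2/M genes 17 were at least 2-fold higher, with a median of 2.15, and in IFT20-KO over stimulated WT cells 15 of the 20 were at least 25% higher, with a median of 0.54. In that comparison 7 of 24 replisome genes, 8 of 13 E2F and pocket protein genes and 5 of 12 degradation genes were at least 25% higher, against 30.1% of all genes, with medians of 0.21, 0.37 and 0.18. Relative to the all-gene median these were 0.078, 0.23 and 0.041, and that of the G2/M genes was 0.40. The IFT20-KO list counts were not made in UMIs per cell, where the all-gene median was -0.49 and every member was lower. Per 1000 cells, Mki67 had 165 UMIs in IFT20-KO and 105 in stimulated WT, whereas Top2a had 440 and 464.

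In CPM, genes that share a promoter region with a member did not follow it upon stimulation. Prkdc starts 466 bases from Mcm4 on the opposite strand and was at 12.9 and 12.8 CPM in unstimulated and stimulated WT cells (log2 ratio -0.011, interval -0.16 to 0.14). Ap4m1 starts 420 bases from Mcm7 on the opposite strand. Its promoter window overlaps that of Mcm7 and holds the same 2 E2F words, already counted for Mcm7. Ap4m1 was at 9.94 and 9.09 CPM (-0.13, interval -0.30 to 0.046). In UMIs per cell both genes were higher after stimulation. Prkdc had 478 UMIs in 8031 and 1494 UMIs in 9903 cells, and Ap4m1 had 369 and 1063 UMIs. In IFT20-KO over stimulated WT cells they differed by 0.66 and 0.55, more than Mcm4 (0.36) and Mcm7 (0.23).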

How the data were processed

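The 3 libraries, each from sorted mouse spleen CD4+ T cells, were analysed. The authors aligned reads, called cells and counted UMIs with Cell Ranger against mm10, and the matrix headers name version 3.1.0. They deposited raw counts of UMIs per gene and barcode, without normalization. The labels name a 5′ kit and the methods a 3′ kit, which read opposite ends of a transcript. Kept cells had over 200 genes and below 15% of UMIs from mitochondrial genes, and no doublet caller was run.

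UMIs were summed per library. Intervals at the 95% level were exact Poisson (CPM), exact binomial (ratios) and Clopper-Pearson (shares of cells). Cells of 1 library are not replicates, so p-values were not computed. Rules of 2-fold (stimulation) and 25% (IFT20-KO) were applied to genes that had 10 or more UMIs over the pair of libraries, with a floor of 3 counts for a gene at 0. Thinning drew 1400 or 4000 UMIs per cell without replacement. Correlations used log1p of UMIs per 10000. The calculations were tested on simulated data.

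Members, lists and rules were chosen with earlier results of these data known. The rule for named genes took the members, Ift20, Mki67, Top2a, Pcna, the 3 highest and 3 lowest of each list, and the 10 most alike, not all of which are printed. Protein motifs were not analysed here. Alternatives were 2 other scalings, per-cell means, other cell filters and thinning. Python 3.11.15, numpy 2.4.6, scipy 1.17.1, pandas 2.3.3 and matplotlib 3.10.9 were used.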

Additional observations from a re-analysis of the deposited data

How the results depend on the processing

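In stimulated over unstimulated WT cells the direction held for all 10 members under all 9 alternatives. The log2 ratio of the summed Mcm2 to Mcm7 was 2.83 and became 3.04 with median-ratio scaling, 4.19 as UMIs per cell, 2.73 with the mean of per-cell shares, 2.88 in cells with at least 4000 UMIs and 2.76 after thinning to 1400 UMIs. The count of members at least 2-fold higher stayed at 10, or 9 with per-cell shares, where Cdt1 was at 0.93.

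IFT20-KO over stimulated WT depended on the scaling. The log2 ratio of the sum, 0.20, became 0.061 with median-ratio scaling, 0.27 with per-cell shares, 0.19 in cells with at least 4000 UMIs and 0.26 after thinning, and it turned to -0.43 as UMIs per cell. The 3 members at least 25% higher became 0 with median-ratio scaling, 0 as UMIs per cell and 1 in cells with at least 4000 UMIs, but 4 with per-cell shares and 4 after thinning to 1400 UMIs. Relative to the all-gene median the count was 0, but 3 with per-cell shares, 3 after thinning and 1 without the 5% of cells with the most UMIs. With median-ratio scaling Mcm2 turned to -0.070 and Mcm5 to -0.022. As UMIs per cell all 10 turned, to -0.56 (Mcm2), -0.43 (Mcm3), -0.26 (Mcm4), -0.51 (Mcm5), -0.46 (Mcm6), -0.40 (Mcm7), -0.23 (Mcm10), -0.19 (Cdc6), -0.46 (Cdt1) and -0.40 (Gmnn). By construction this setting keeps the difference in depth (12167 against 5014.5 UMIs in the median cell).

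The share of MCM-positive cells without Mki67, 94.99% in stimulated WT and 91.2% in IFT20-KO cells, was 93.3% and 89.5% with all 6 genes required, 75.0% and 68.5% with Top2a as a further mark, 98.6% and 96.5% at 1400 UMIs, 97.7% and 95.9% at 4000 UMIs, and 95.7% and 91.9% without the 5% of cells with the most UMIs. Thinning removes Mki67 UMIs as well, and over groups of cells by depth the share was uneven. It was 90% and 85.5% in cells of 3000 to 6000 UMIs and 98.2% and 94.9% in cells of 6000 to 12000. In cells of 20000 or more UMIs it was 87.4% and 82.5%. No paired analysis was possible because each condition has 1 library. At these depths, a gene not seen in a cell is not shown to be absent from it.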
